A study of Rattus norvegicus with 19 samples.

Results

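Retinal mRNA of 7 insulin-treated diabetic rats was compared with that of 7 non-diabetic controls, on 14 of the 19 arrays of the study, each with the RNA of 1 rat. Male Sprague-Dawley rats of the insulin-treated group had received streptozotocin, a toxin of pancreatic beta cells, at 65 mg/kg into the peritoneum, and controls its vehicle only. Insulin came from 26 mg pellets under the skin from week 6, with a further implant where the body weight passed 300 g or the blood glucose 250 mg/dL. The rats had thus been diabetic and untreated before insulin began, and retinas of all groups were taken 3 months after injection. Another 5 rats had streptozotocin and no insulin, and their values stand beside the main comparison where they help to read it. The age of the rats was not given in the sources used here. The study dissected the retina with its pigment epithelium and removed lens and vitreous, and the values are means over all cells of that tissue, in which fewer cells of a type and less RNA per cell cannot be told apart.

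Signals are average-normalized bead intensities from Illumina RatRef-12 arrays, on the log2 scale after values under 10 were set to 10, so a difference of 1 is a doubling. Probes were kept where either group had a detection p under 0.05 on all of its arrays, which left 10517 of 22517 probes, and 7224 named genes, each represented by its brightest probe. Of the kept probes, 9954 were detected on all arrays of both groups, 265 on every array of the controls only and 298 on every array of the insulin-treated rats only. The mean non-normalized signal per array was 337 to 433 in controls and 307 to 475 in insulin-treated rats, and 11321 to 11593 and 11239 to 11684 probes per array were detected. Arrays of 1 group correlated with each other at 0.98 to 0.991 in controls and 0.979 to 0.991 in insulin-treated rats over 9954 probes. The arrays lay on 2 BeadChips, with 3 controls and 4 insulin-treated rats on BeadChip 1 and 4 controls and 3 insulin-treated rats on BeadChip 2. Of 16 rod photoreceptor markers on the array 15 were detected, and their summed signal was 101191 to 110058 in controls and 94030 to 127459 in insulin-treated rats.

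Insulin is a hormone that acts on most tissues through the insulin receptor and the kinase AKT, and lowers blood glucose by way of muscle, fat and liver. Retinal neurons and photoreceptors burn glucose at a high rate and take it up without needing insulin, so insulin given to a diabetic animal can act on the retina by lowering blood glucose as well as through receptors in the retina. In the diabetic retina, genes of glial reactivity and metal binding are known to be expressed more highly.

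Retinas of insulin-treated diabetic rats differed little from those of non-diabetic controls in single genes. By limma with Benjamini-Hochberg adjustment 1 probe of 10517 passed an adjusted p of 0.05, that of Cobl, which was lower, making 0.0% of probes higher and 0.00951% lower. Of probes with an unadjusted p under 0.05, those differing by more than 1.2-fold were 173 higher and 505 lower (1.64% and 4.8% of all tested), out of 1136 at that p. The signals of the 2 groups did not overlap at all for 8 probes that were higher and 15 that were lower in insulin-treated rats (0.0761% and 0.143%), and these carried 7 and 11 named genes. In one fit of all 3 groups, 1 probe differed between insulin-treated rats and controls and 1088 probes (10.3%) between insulin-treated and diabetic rats at an adjusted p under 0.05. The 1088 include probes of lens genes, such as Cryba2 (-2.92, adjusted p = 0.0181) and Lim2 (-4.45, adjusted p = 0.0121). The count for diabetic rats against controls is not reported here, so these counts do not measure how far insulin restored control values. The excess of lower probes depended on the scaling where no fold change was required. At an unadjusted p under 0.05 alone, 417 probes were higher and 719 lower with average normalization, 704 and 555 with quantile normalization, 711 and 560 with neqc, and 573 and 419 with non-normalized signals centred on the median. With the fold change required as well, lower probes stayed in excess under each of these scalings. Quantile normalization then gave 316 higher and 383 lower, neqc 183 and 320, and median-centred signals 106 and 207. BeadChip 2 alone, with average normalization, gave 701 higher and 626 lower. Leaving out 1 control array decided the number of calls: 128 probes passed the adjusted p without control 1 and 119 without control 3, and 337 (49 higher and 288 lower) without both, an alternative chosen after the data had been seen.

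**Figure D1:**
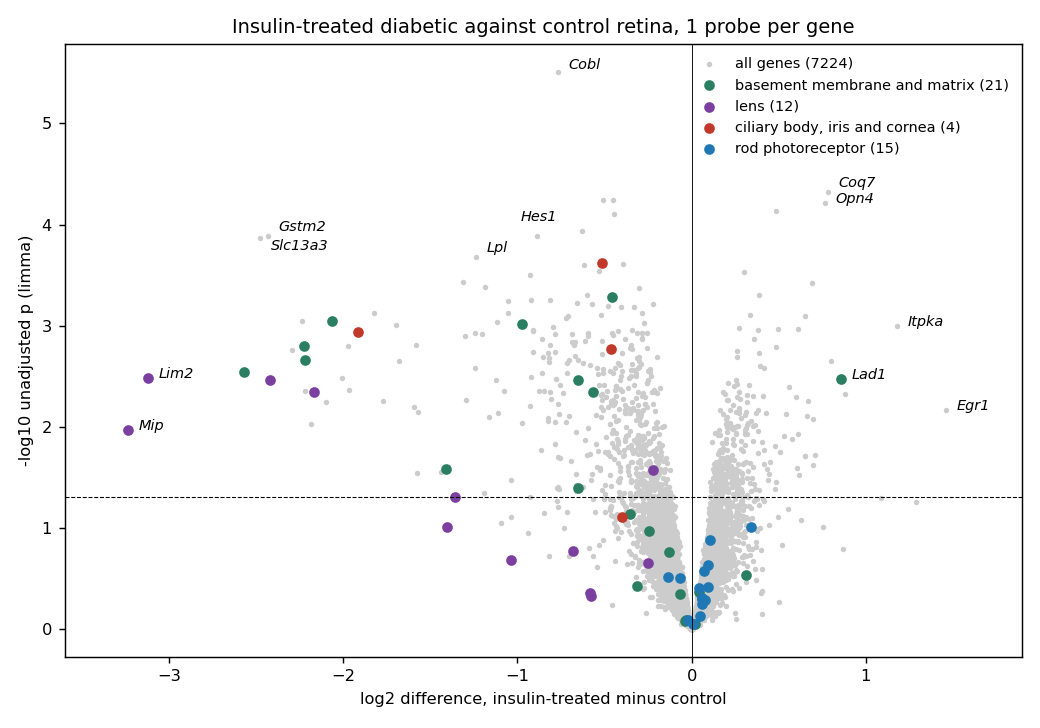
Log2 difference between insulin-treated diabetic and control retina (x axis) against -log10 of the unadjusted limma p (y axis) for 7224 genes, 1 probe per gene; the dashed line marks an unadjusted p of 0.05. Genes of lens, of ciliary body, iris and cornea, and of basement membrane and matrix lie mostly to the left, down to -3.24 for Mip, while the 15 rod genes lie near 0.

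Among all named genes the median difference was -0.004, with 297 genes higher and 519 lower at an unadjusted p under 0.05 (4.11% and 7.18% of 7224). By direction alone 3503 genes were higher and 3721 lower. The median absolute difference over genes was 0.0759, and the median SD between arrays of a group was 0.147 in controls and 0.178 in insulin-treated rats. Differences of more than 1 on the log2 scale were found for 55 genes, of which 51 were lower in insulin-treated rats and 4 higher, and 15 of those 51 belong to the lists for lens, ciliary tissue, pigment epithelium or matrix. The counts and medians of lists below are to be read against these values. At an unadjusted p alone, the excess of lower genes holds for average normalization, and for probes it turned under the other scalings given above. With the fold change required as well, it did not turn for probes under those scalings.

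Cobl encodes cordon-bleu, a protein that nucleates actin filaments in neurons and epithelia. Its log2 signal was 4.89 to 5.45 (median 5.22) in controls and 4.07 to 4.72 (median 4.49) in insulin-treated rats. No insulin-treated array reached the lowest control. Cobl fell by 0.77 on the log2 scale (SE 0.11, 1.70-fold, adjusted p = 0.0325 in limma, n = 7 and 7), and the difference was -0.77 on BeadChip 1 and -0.76 on BeadChip 2. Diabetic rats without insulin lay between 4.99 and 5.47, close to the range of the controls, and the difference of insulin-treated from diabetic rats was -0.78 (adjusted p = 0.00178). The probe was dim, detected on 7 of 7 control and 6 of 7 insulin-treated arrays, and its adjusted p rose to 0.0785 with the BeadChip as a block.

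Opn4 encodes melanopsin, the photopigment of the ganglion cells that sense ambient light. Its log2 signal was 6.94 to 7.83 (median 7.48) in controls and 7.88 to 8.48 (median 8.02) in insulin-treated rats. The highest control and the lowest insulin-treated rat were close, yet the groups stayed apart. The difference was 0.77 (SE 0.14, 1.70-fold, adjusted p = 0.104), 0.45 on BeadChip 1 and 1.06 on BeadChip 2. Diabetic rats had 6.70 to 7.42, and the difference of insulin-treated rats from them was 1.09 (adjusted p = 0.00142), while the difference of diabetic rats from controls was -0.33 (adjusted p = 0.248). Of the 12 ganglion cell genes detected, Opn4 was the only one at an unadjusted p under 0.05, and the median of the list was 0.01.

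Coq7 encodes a hydroxylase of coenzyme Q synthesis in mitochondria, and its log2 signal was 6.20 to 7.18 (median 6.90) in controls and 7.27 to 7.79 (median 7.56) in insulin-treated rats. The groups did not overlap. The difference was 0.78 (SE 0.14, 1.72-fold, adjusted p = 0.104), and diabetic rats had 5.18 to 6.88 (insulin-treated minus diabetic 1.33, adjusted p = 0.00347). The difference of diabetic rats from controls was -0.55 (adjusted p = 0.173), and their ranges overlapped. Rpusd3, a pseudouridine synthase that acts on mitochondrial RNA, had 5.51 to 6.17 in controls and 6.22 to 6.61 in insulin-treated rats, a difference of 0.48 (SE 0.09, adjusted p = 0.104). Tubgcp6, a subunit of the gamma-tubulin ring complex from which microtubules grow, had 3.66 to 4.76 in controls and 4.87 to 5.38 in insulin-treated rats (0.61, SE 0.15, adjusted p = 0.146). These 2 genes also kept the groups apart, but the Tubgcp6 probe was near background, and was detected on 6 of 7 control arrays.

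The other genes above every control were Ogdh, a subunit of the oxoglutarate dehydrogenase of the citric acid cycle, and Stk16, a membrane-bound kinase, both with small differences on a small spread (0.12, SE 0.04, and 0.13, SE 0.05), and A2m. A2m, a protease inhibitor of blood and glia, had 10.51 to 10.75 in controls and 10.84 to 12.09 (median 10.89) in insulin-treated rats, a difference of 0.54 (SE 0.18, adjusted p = 0.222). In 5 of the 7 insulin-treated rats A2m lay at 10.84 to 11.07. Insulin-treated rats 3 and 6, with 12.09 and 11.71, lay above the median of diabetic rats (11.57), whose values were 10.56 to 12.84.

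Below every control lay Hes1, a transcription repressor and target of Notch signalling that marks Müller glia and progenitor cells. Its log2 signal was 6.59 to 7.39 (median 7.12) in controls and 6.14 to 6.58 (median 6.46) in insulin-treated rats. The lowest control was next to the highest insulin-treated rats. The difference was -0.63 (SE 0.12, 1.55-fold, adjusted p = 0.104), -0.46 on BeadChip 1 and -0.79 on BeadChip 2, and diabetic rats had 6.35 to 7.32. With the mean of the lens list as a covariate it was -0.55, and with the mean of the ciliary body, iris and cornea list -0.20, both alternatives chosen after the data had been seen. Serpinb9, an inhibitor of granzyme B, had 7.97 to 8.38 in controls and 7.29 to 7.94 in insulin-treated rats (-0.51, SE 0.09, adjusted p = 0.104). Tgfb2, a secreted growth factor of the TGF-beta family, had 9.70 to 10.38 in controls and 9.56 to 9.69 in insulin-treated rats (-0.46, SE 0.10, adjusted p = 0.146). Tgfb2 varied very little among insulin-treated rats, and diabetic rats lay at 10.07 to 10.26, above all insulin-treated rats (insulin-treated minus diabetic -0.54, adjusted p = 0.00633). Its difference from controls was -0.34 with the lens covariate and -0.16 with the ciliary covariate.

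Gja5 encodes connexin 40, a gap junction protein of arterial endothelium. Its log2 signal was 4.62 to 5.07 in controls and 4.19 to 4.52 in insulin-treated rats, a difference of -0.45 (SE 0.08, adjusted p = 0.104), with detection on 7 and 5 arrays. Diabetic rats had 3.74 to 4.70 and did not pass the test against insulin-treated rats (0.18, adjusted p = 0.459). Against controls, diabetic rats were also lower in the limma fit of all 3 groups (-0.63, adjusted p = 0.0309). The other named genes below every control differed little, with Arg2 (-0.31), the arginase of mitochondria, Spart (-0.30), Il11ra1 (-0.28), a receptor chain for interleukin 11, Vamp3 (-0.27), a SNARE protein of recycling vesicles, Them4 (-0.25) and Hacd3 (-0.22).

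**Figure D2:**
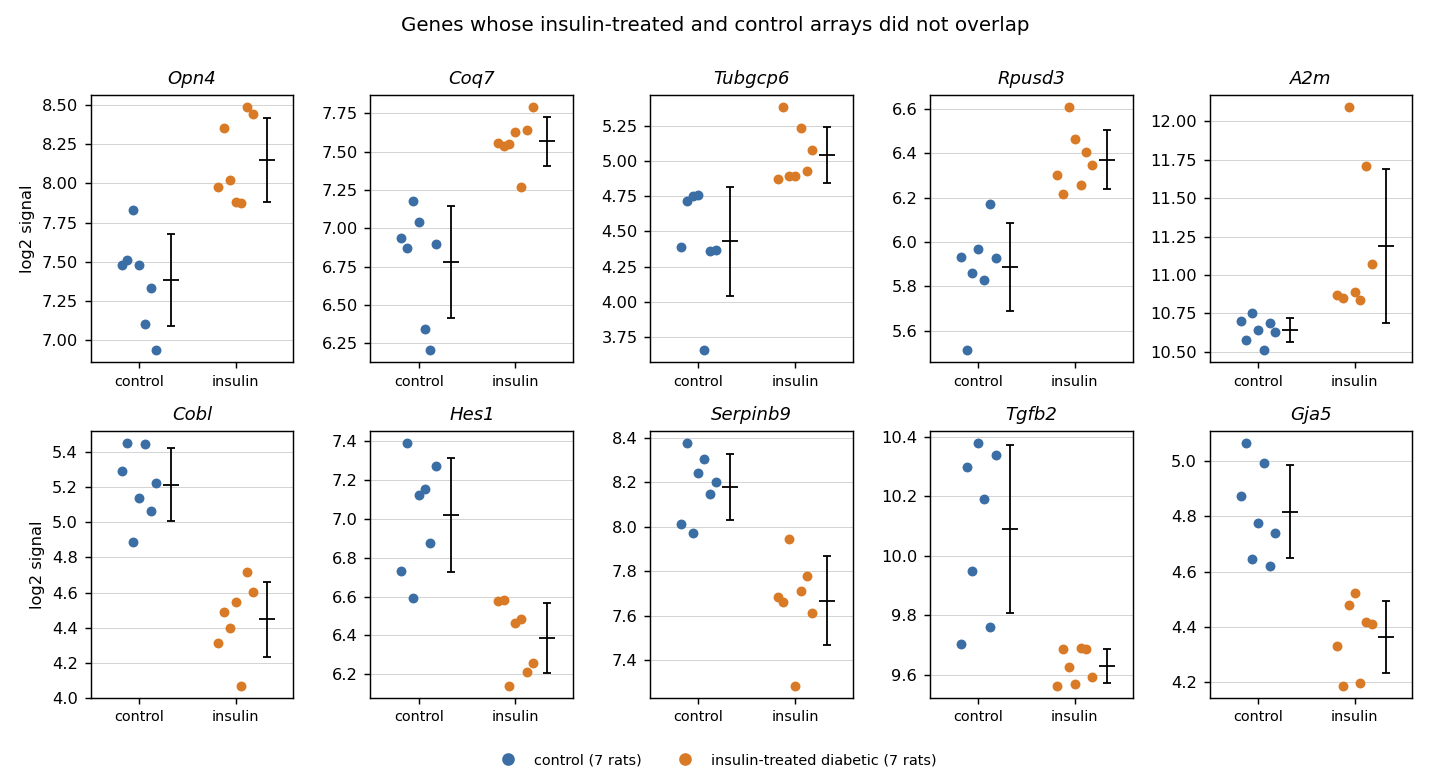
Log2 signal of every array (points; bars give mean and SD) for 10 genes whose 7 insulin-treated and 7 control arrays did not overlap; the y axes differ between panels. The upper row is higher in insulin-treated rats, with Coq7 at 7.27 to 7.79 against 6.20 to 7.18, and the lower row is lower, with Cobl at 4.07 to 4.72 against 4.89 to 5.45.

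Of all lists, those of tissues beside the neural retina and of matrix had medians farthest from 0. Of 26 lens genes listed, 13 were on the array and 12 were detected, and all 12 lay lower in insulin-treated rats, 6 of them at an unadjusted p under 0.05, with a median of -1.20. Gja3, a lens fibre connexin, was the marker on the array that was not detected. The summed signal of the list was 4587 to 58417 in controls (median 38090) and 1800 to 17068 in insulin-treated rats (median 8085), so the groups overlapped. Controls 1 and 3 had 4587 and 7877, with the other controls at 31285 to 58417, and insulin-treated rat 3 was the highest of its group. On BeadChip 1, which held both low controls, the median of the list was -0.47, and on BeadChip 2 it was -1.71. Diabetic rats had 12169 to 90114.

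Cryba2, a beta-crystallin and structural protein of lens fibres, had a log2 signal of 10.75 to 14.56 (median 14.17) in controls and 8.68 to 12.24 (median 11.20) in insulin-treated rats. The difference was -2.42 (SE 0.70, adjusted p = 0.176), and every insulin-treated rat lay under the control mean. Cryba1 differed by -2.17 (SE 0.65, adjusted p = 0.19). Lim2, a membrane protein of lens fibres, had 4.58 to 10.23 (median 9.65) in controls and 3.37 to 6.76 (median 5.37) in insulin-treated rats, with detection on 7 and 5 arrays (-3.12, SE 0.90, adjusted p = 0.174). Mip, the water channel of lens fibres, was detected on 7 control arrays and on 2 insulin-treated ones, with 4.39 to 11.29 and 3.32 to 6.35, where 3.32 is the floor (-3.24, SE 1.11, adjusted p = 0.251).

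The ciliary body, iris and cornea list had 4 of 11 genes on the array detected, namely Slc4a4, Wfdc1, Aqp1 and Ptgds, with Lum, Dcn, Kera, Aldh3a1, Car12, Optc and Aqp5 not detected. These 4 all lay lower, 3 at an unadjusted p under 0.05, with a median of -0.49, -0.35 on BeadChip 1 and -0.68 on BeadChip 2. Their summed signal was 2772 to 5906 in controls and 2758 to 3716 in insulin-treated rats, and controls 1 and 3, with 3814 and 2772, were again the lowest of their group. Wfdc1, a secreted protein of the ciliary epithelium and other tissues, had 6.65 to 9.88 (median 9.38) in controls and 6.24 to 6.83 in insulin-treated rats (-1.91, SE 0.48, adjusted p = 0.146). Slc4a4, a sodium bicarbonate cotransporter that Müller glia also express, had 4.54 to 5.13 and 4.01 to 4.57 (-0.52, SE 0.11, adjusted p = 0.133).

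The list of pigment epithelium and choroid had 9 of 13 genes on the array detected (Tyr, Slc45a2, Krt18 and Bmp4 were not). By direction alone 8 were lower and 1 higher, and at an unadjusted p under 0.05 only 2 were lower and 1 higher. The median was -0.77, -0.52 on BeadChip 1 and -0.27 on BeadChip 2. Its summed signal was 9547 to 12587 in controls and 10189 to 12311 in insulin-treated rats, and did not part the groups. Otx2, the brightest gene of the list and also one of photoreceptors and bipolar cells, lay higher. Otx2 had 12.92 to 13.29 in controls and 13.11 to 13.43 in insulin-treated rats (0.17, SE 0.07, adjusted p = 0.386). Tyrp1, an enzyme of melanin synthesis, had 5.89 to 8.32 in controls and 4.82 to 6.82 in insulin-treated rats (-1.11, SE 0.36, adjusted p = 0.222). Rgr, a visual cycle protein of the opsin family in pigment epithelium and Müller glia, had 7.03 to 9.41 and 5.98 to 8.73 (-0.93, SE 0.43, adjusted p = 0.462).

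Of 41 genes of basement membrane and matrix, 21 were detected, and 10 lay lower and 1 higher at an unadjusted p under 0.05, with a median of -0.35, -0.30 on BeadChip 1 and -0.64 on BeadChip 2. Col8a1, a short-chain collagen of the corneal and vascular basement membrane, had 4.25 to 7.55 (median 6.93) in controls and 3.40 to 6.24 (median 4.28) in insulin-treated rats (-2.07, SE 0.50, adjusted p = 0.146). It came to -1.54 with the lens and -0.95 with the ciliary covariate. Col18a1, a basement membrane collagen, had 6.99 to 8.47 and 6.58 to 7.14 (-0.97, SE 0.24, adjusted p = 0.146). It came to -0.61 with the lens and -0.07 with the ciliary covariate. Fbln1, an extracellular matrix glycoprotein, had 6.38 to 11.09 (median 10.96) in controls, so that most controls were bright and a few dim, and 6.42 to 8.35 in insulin-treated rats (-2.57, SE 0.72, adjusted p = 0.166). Its difference was -1.13 with the lens and -0.10 with the ciliary covariate, and controls 1 and 3 were the dimmest. The 1 matrix gene that lay higher was Lad1, ladinin, a component of anchoring filaments (0.86, SE 0.25, adjusted p = 0.176; 0.79 with the lens and 1.15 with the ciliary covariate).

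**Figure D3:**
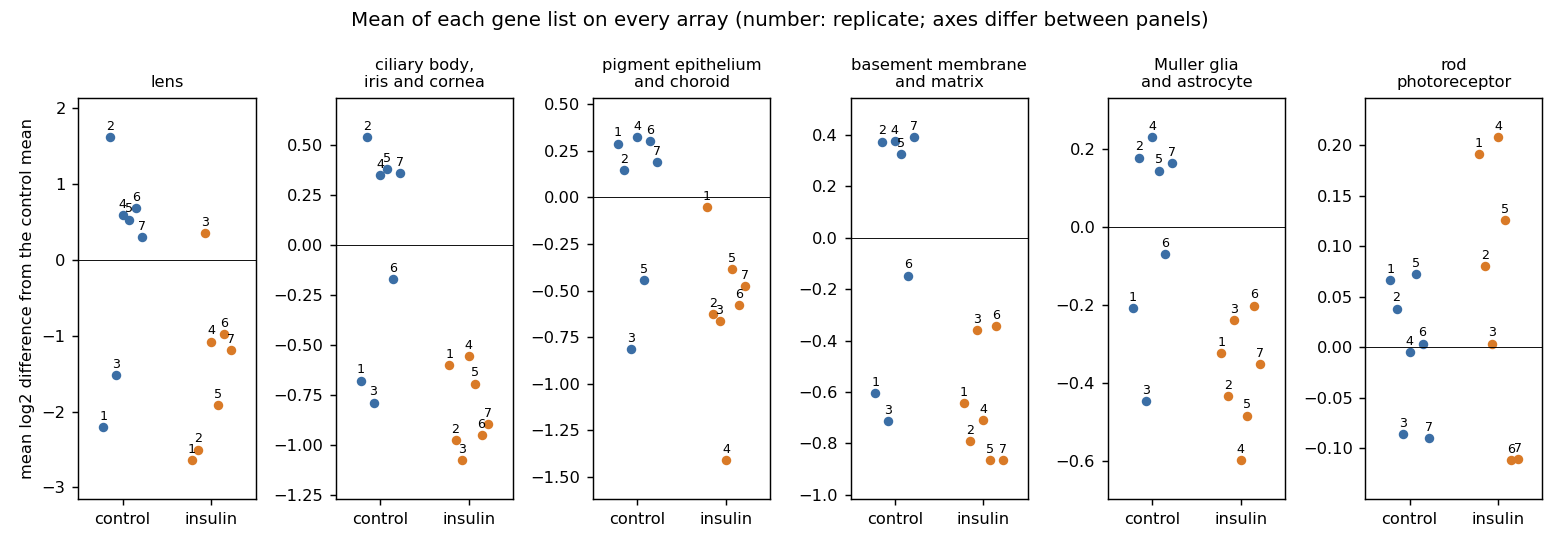
Mean over the detected genes of 6 lists on every array, as the log2 difference from the control mean (y axis, which differs between panels), with the replicate number at each point. Controls 1 and 3 lay at -2.21 and -1.52 for lens genes and at -0.68 and -0.79 for the ciliary list, among the insulin-treated arrays, and the 7 insulin-treated arrays of the ciliary list lay at -0.56 to -1.08.

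Some of the genes with the smallest p values were low in the same 2 controls. Gstm2, a glutathione transferase, had 4.70 to 7.78 (median 7.10) in controls and 3.32 to 4.87 (median 4.11) in insulin-treated rats, and was detected on 7 and 3 arrays. The 2 lowest controls were again 1 and 3, with 4.78 and 4.70. The difference was -2.43 (SE 0.48, 5.40-fold, adjusted p = 0.104), -1.36 with the mean of the lens list as a covariate and -0.87 with that of the ciliary list. Slc13a3, a cotransporter of sodium and dicarboxylates, had 4.93 to 7.68 in controls and 3.32 to 5.53 in insulin-treated rats, with detection on 7 and 3 arrays (-2.48, SE 0.49, adjusted p = 0.104; -1.88 with the lens and -0.90 with the ciliary covariate). Lpl, the lipoprotein lipase that frees fatty acids for uptake, had 8.20 to 10.00 and 7.68 to 8.28 (-1.24, SE 0.26, adjusted p = 0.133; -0.91 with the lens and -0.35 with the ciliary covariate). Cobl came to -0.68 with the lens and -0.63 with the ciliary covariate, and Serpinb9 to -0.39 with either. Among genes that lay higher, Coq7 came to 0.70 and 0.65 and Opn4 to 0.69 and 0.45 with the lens and the ciliary covariate. The number of probes that differed by more than 1.2-fold at an unadjusted p under 0.05 was 678 with no covariate, 499 with the lens covariate (154 higher and 345 lower) and 247 with the ciliary covariate (117 higher and 130 lower). The means used as covariates themselves differed between controls and insulin-treated rats (8.92 and 7.49 for the lens list, 8.30 and 7.48 for the ciliary list). Such a covariate takes up part of any group difference, so these fits cannot tell tissue and group apart. The part of lens, ciliary or matrix tissue in these differences was not tested beyond these values.

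Müller glia and astrocyte genes lay lower on balance. Of 20 listed, 14 were on the array and 12 detected (not Kcnj10 and Pax2), 5 were lower and 1 higher at an unadjusted p under 0.05, and the median was -0.21, with -0.17 on BeadChip 1 and -0.24 on BeadChip 2. The summed signal was 26654 to 35635 in controls and 25428 to 33052 in insulin-treated rats, and controls 1 and 3 were the lowest of their group here too. Gja1, connexin 43 of astrocytes, lens epithelium and ciliary epithelium, had 8.17 to 12.00 (median 11.79) in controls and 7.69 to 9.30 (median 8.46) in insulin-treated rats (-2.30, SE 0.61, adjusted p = 0.153; -1.15 with the lens and -0.12 with the ciliary covariate). Apoe, the apolipoprotein that glia secrete, was bright and even, with 12.15 to 12.54 and 12.03 to 12.29 (-0.22, SE 0.06, adjusted p = 0.19). The gene that lay higher was Fabp7, a fatty acid binding protein of glia and their precursors, with 4.17 to 4.77 in controls and 4.64 to 6.17 in insulin-treated rats (0.65, SE 0.25, adjusted p = 0.33). As with A2m, insulin-treated rats 3 and 6 were the highest, with 6.17 and 6.07, near the median of diabetic rats (6.12, range 4.52 to 7.20).

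Photoreceptor and inner retinal markers stood close to the controls. None of 15 rod genes had an unadjusted p under 0.05, and their median was 0.06. Cone genes had 1 higher and 1 lower of 8 (median 0.09), bipolar cell genes 1 higher of 9 (median 0.01), and amacrine and horizontal cell genes 1 higher and 2 lower of 17 (median -0.05). Synaptic vesicle and presynaptic genes had 3 higher and none lower of 23 (median 0.01), among them Rims2, a scaffold of the active zone, with 10.03 to 10.37 in controls and 10.17 to 10.51 in insulin-treated rats (0.19, SE 0.07, adjusted p = 0.344). This Rims2 probe differed by 0.08 on BeadChip 1 and 0.29 on BeadChip 2, and by 0.02 with the ciliary covariate. A dimmer Rims2 probe differed by 0.13 (unadjusted p = 0.205 in limma). Insulin-treated rats had more Rims2 signal than diabetic rats, by 0.48 (adjusted p = 0.014). Ctbp2, which shares its locus with the ribbon synapse protein RIBEYE, had 11.56 to 11.74 and 11.62 to 12.04 (0.17, SE 0.07, adjusted p = 0.362). Of 21 microglia and leukocyte genes on the array only 7 were detected, and none of these had an unadjusted p under 0.05. Their summed signal was 501 to 708 in controls and 510 to 1405 in insulin-treated rats, with insulin-treated rat 3 the highest. Hemoglobin and other red blood cell genes had none of 3 at that p (median 0.34).

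**Figure D4:**
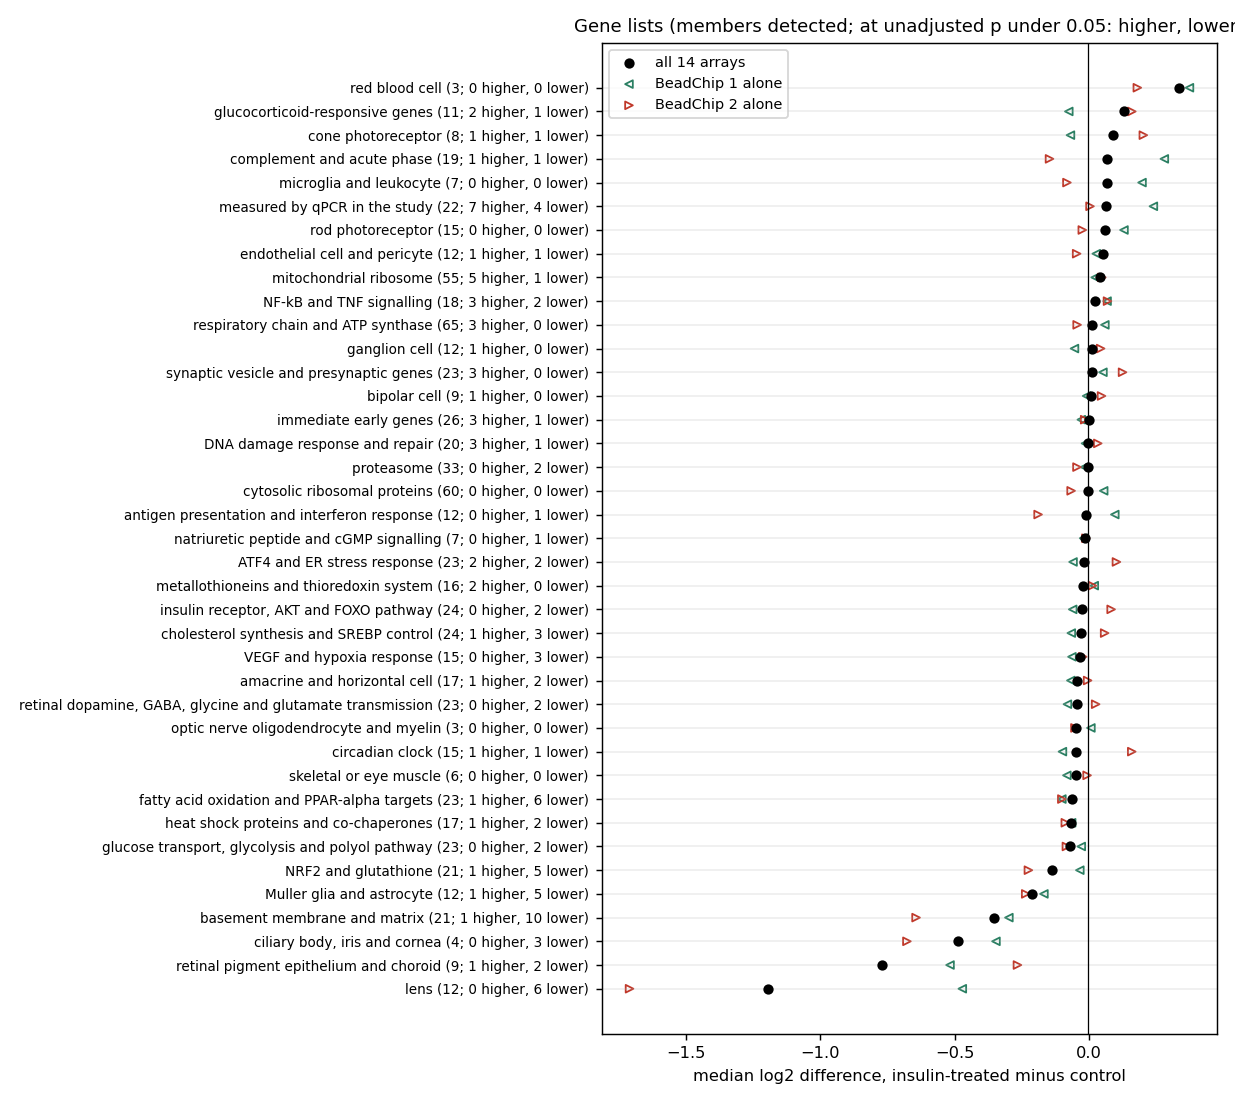
Median log2 difference between insulin-treated and control retina for every gene list (x axis), on all 14 arrays (dots) and on each BeadChip alone (triangles); labels give the number of genes detected and those higher or lower at an unadjusted p under 0.05. Most lists lie near the median of all genes (vertical line, -0.004), and the lists for lens (-1.20), pigment epithelium and choroid (-0.77), ciliary tissue (-0.49) and matrix (-0.35) lie to the left.

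Insulin receptor, AKT and FOXO pathway genes did not part the groups. None of 24 detected was higher and 2 were lower at an unadjusted p under 0.05, with a median of -0.03. Insr, the insulin receptor, named here for its role and after its values had been seen, had 4.90 to 5.36 in controls and 4.59 to 5.71 in insulin-treated rats, a difference with an SE of 0.16 around 0.00 (adjusted p = 0.999). The 2 lower genes were Eif4ebp1, a repressor of translation that the kinase mTOR inactivates, with 7.51 to 8.38 and 7.34 to 8.01 (-0.45, SE 0.14, adjusted p = 0.207), and Igfbp7, a secreted binding protein of vessel walls, with 10.71 to 12.94 and 10.73 to 11.13 (-1.12, SE 0.33, adjusted p = 0.176). The difference of Igfbp7 was -0.55 with the lens covariate and 0.08 with the ciliary covariate.

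Of the genes of fatty acid oxidation and PPAR-alpha, 1 lay higher at an unadjusted p under 0.05. This was Cpt1a, the carnitine palmitoyltransferase by which long-chain fatty acids enter mitochondria. It had a log2 signal of 9.87 to 10.29 (median 10.04) in controls and 10.17 to 10.62 (median 10.41) in insulin-treated rats. The groups overlapped only slightly, and all 7 insulin-treated rats lay above the control mean. The difference was 0.39 (SE 0.09, 1.31-fold, adjusted p = 0.146), 0.25 on BeadChip 1 and 0.56 on BeadChip 2. In the same list 6 of 23 genes lay lower at an unadjusted p under 0.05, with a median of -0.06, among them Acadl, the long-chain acyl-CoA dehydrogenase, with 7.40 to 8.18 and 7.04 to 7.71 (-0.47, SE 0.13, adjusted p = 0.166). Controls 1 and 3 were the lowest controls for Acadl, which came to -0.23 with the lens and -0.15 with the ciliary covariate. Cpt1a came to 0.33 and 0.22. Of glucose transport, glycolysis and polyol genes 2 of 23 were lower and none higher (median -0.07). The larger difference of these was that of Akr1b1, the aldose reductase that turns glucose to sorbitol and is abundant in lens, with 11.30 to 12.84 in controls and 11.31 to 11.60 in insulin-treated rats (-0.72, SE 0.20, adjusted p = 0.168; -0.36 with the lens and 0.03 with the ciliary covariate). Slc2a6, a glucose transporter family member of intracellular membranes that the list did not hold, had 5.57 to 5.99 and 5.93 to 6.28 (0.34, SE 0.08, adjusted p = 0.146). Phgdh, the first enzyme of serine synthesis, had 6.32 to 7.79 and 5.81 to 6.38 (-0.93, SE 0.20, adjusted p = 0.146; -0.56 with the lens and -0.21 with the ciliary covariate).

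Mitochondrial genes stood near the controls. Of 55 mitochondrial ribosome genes 5 were higher and 1 lower at an unadjusted p under 0.05 (median 0.04), and of 65 respiratory chain and ATP synthase genes 3 were higher and none lower (median 0.01, 0.06 on BeadChip 1 and -0.04 on BeadChip 2). Mrpl54, a protein of the large mitochondrial ribosomal subunit, had 9.04 to 9.71 in controls and 9.57 to 9.84 in insulin-treated rats (0.33, SE 0.11, adjusted p = 0.24). Mrps27, of the small subunit, differed by 0.20 (SE 0.07, adjusted p = 0.24), and Mrpl19 was the lower one (-0.20, SE 0.07, adjusted p = 0.245). Of the respiratory chain the 3 were Ndufv1 and Ndufs7 of complex I (0.21, SE 0.08, and 0.15, SE 0.07) and Atp5f1c of the ATP synthase (0.13, SE 0.06). None of 60 cytosolic ribosomal protein genes had an unadjusted p under 0.05 (median -0.01).

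Immediate early genes were split, with 3 higher and 1 lower of 26 and a median of -0.002. Fos, a subunit of the transcription factor AP-1 that neurons induce on activity, had a log2 signal of 4.69 to 5.36 (median 5.09) in controls and 5.07 to 6.12 (median 5.74) in insulin-treated rats. Insulin-treated rat 4, at 5.07, was the one within the control range. The difference was 0.69 (SE 0.15, 1.61-fold, adjusted p = 0.146), alike on both BeadChips (0.69 and 0.71), and diabetic rats spread from 4.25 to 7.29. Egr1, a zinc finger transcription factor of the same early response, had 6.71 to 8.12 (median 7.41) in controls and 7.55 to 10.32 (median 8.42) in insulin-treated rats. Of the insulin-treated rats 4 lay at 7.55 to 8.42, and rats 2, 5 and 7 at 9.71, 10.25 and 10.32. The difference was 1.46 (SE 0.47, 2.75-fold, adjusted p = 0.218), 0.63 on BeadChip 1 and 2.48 on BeadChip 2, and against diabetic rats, which lay at 6.74 to 7.24, it was 1.78 (adjusted p = 0.0215).

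Itpka, a kinase of inositol trisphosphate in neurons, had 3.45 to 5.46 (median 5.00) in controls and 5.36 to 6.35 (median 6.06) in insulin-treated rats, with detection on 5 and 7 arrays (1.18, SE 0.29, adjusted p = 0.146). Dnai2, an axonemal dynein chain, had 5.24 to 6.25 and 6.02 to 6.74 (0.65, SE 0.16, adjusted p = 0.146). Cmss1, a gene whose yeast relative acts in ribosome assembly, had 7.78 to 8.02 and 8.02 to 8.37 (0.30, SE 0.06, adjusted p = 0.142), nearly without overlap. Prkcq, protein kinase C theta, had 6.42 to 7.12 and 5.13 to 6.45 (-0.89, SE 0.17, adjusted p = 0.104), and Tpm4, a tropomyosin of the actin cytoskeleton, 8.08 to 8.56 and 7.70 to 8.08 (-0.39, SE 0.08, adjusted p = 0.133). Nfkbia, the inhibitor of NF-kB, had 10.83 to 11.22 and 11.05 to 11.37 (0.20, SE 0.07, adjusted p = 0.281), in a list of NF-kB and TNF signalling with 3 of 18 genes higher and 2 lower (median 0.02).

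The study measured a set of genes by qPCR, chosen on these arrays, so their counts are no independent evidence. Of the 22 detected, 7 were higher and 4 lower in insulin-treated rats than in controls at an unadjusted p under 0.05, and none passed the adjusted p. Mt1, metallothionein 1, which binds zinc and copper and is induced by metals and glucocorticoids, had a log2 signal of 8.90 to 10.11 (median 9.74) in controls, 9.92 to 11.04 (median 10.43) in insulin-treated rats and 10.36 to 11.23 (median 10.53) in diabetic rats. The difference from controls was 0.80 (SE 0.22, adjusted p = 0.16), 0.30 on BeadChip 1 and 1.27 on BeadChip 2, and it was 0.82 with the lens and 0.21 with the ciliary covariate. Txnip, an inhibitor of thioredoxin that glucose induces, had 8.55 to 9.08 in controls and 8.66 to 10.25 in insulin-treated rats (0.53, SE 0.19, adjusted p = 0.27). Insulin-treated rats 3 and 6, high for A2m and Fabp7, were also the highest for Txnip, with 10.25 and 9.77, while insulin-treated rat 5, at 8.66, lay within the controls.

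Lad1 had 6.89 to 8.42 in controls and 8.07 to 9.10 in insulin-treated rats. Qprt, an enzyme of NAD synthesis from tryptophan, had 4.97 to 6.26 and 5.62 to 6.59 (0.58, SE 0.21, adjusted p = 0.279), and Litaf, a membrane protein of endosomes, 7.21 to 7.72 and 7.46 to 8.39 (0.33, SE 0.13, adjusted p = 0.354). For all 7 higher genes, which include A2m and Fabp7, the mean of the diabetic rats lay above that of the insulin-treated rats. The study drew its qPCR genes from those that differed between diabetic and control arrays. A diabetic mean far from controls was thus part of their choice, and this order of the means is no independent evidence. Insulin-treated minus diabetic was -0.24 for Mt1, -0.41 for Txnip, -0.12 for Lad1 and -0.37 for Qprt. It was -0.40 for A2m, -0.71 for Fabp7 and -0.46 for Litaf. None of these differences passed in the limma fit of all 3 groups (adjusted p from 0.0946 to 0.799). The same 7 controls enter the comparison of either diabetic group with controls. The 4 lower genes were Ackr3, a scavenger receptor for the chemokine CXCL12 (-0.60, SE 0.15, adjusted p = 0.146), Dcps, a scavenger of mRNA caps (-0.44, SE 0.13), Rgr, and Drd5, a dopamine receptor (-0.35, SE 0.15), the last with -0.58 on BeadChip 1 and -0.05 on BeadChip 2. Controls 1 and 3 were the lowest controls for Ackr3, which came to -0.42 with the lens and -0.18 with the ciliary covariate. With the ciliary covariate Dcps came to -0.48, Rgr to -0.98 and Drd5 to -0.50.

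**Figure D5:**
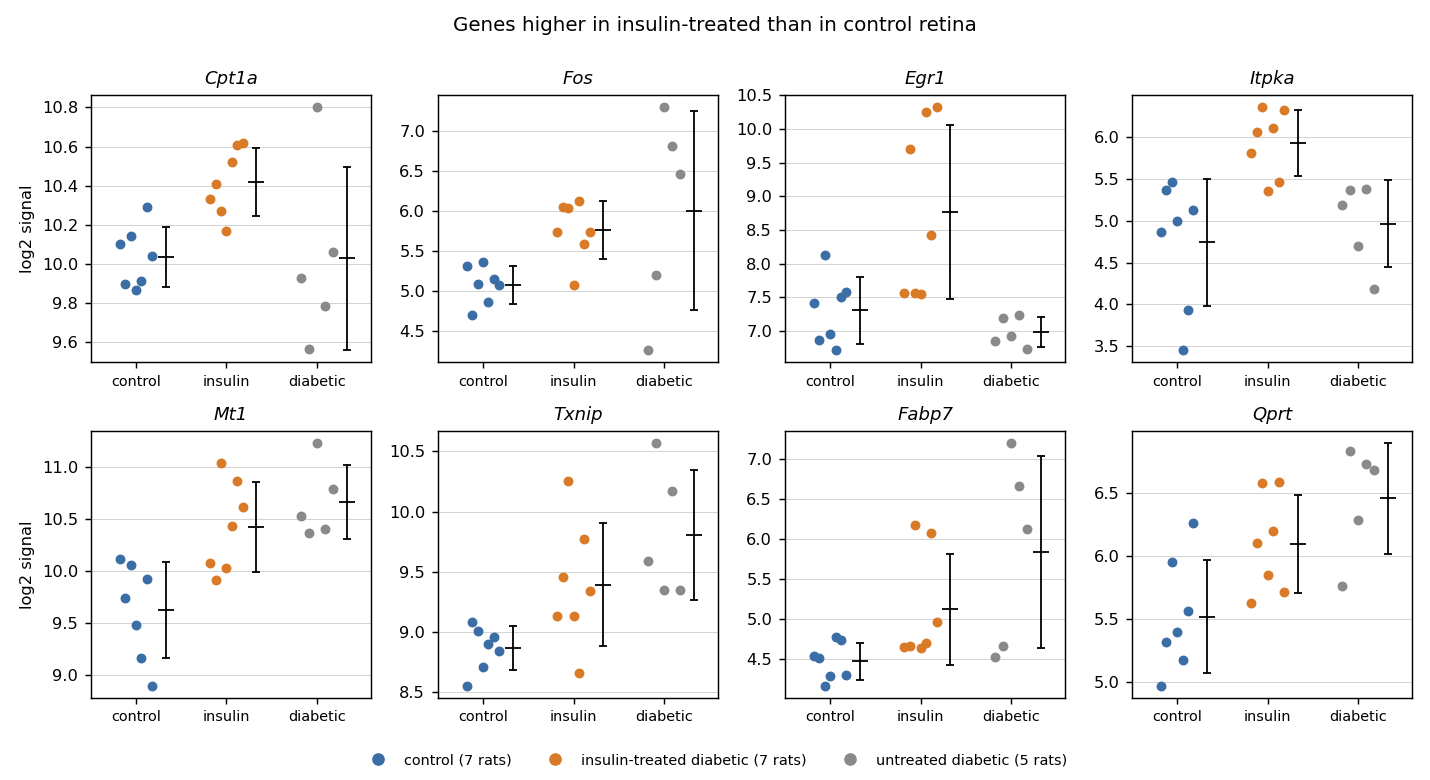
Log2 signal of every array (points; bars give mean and SD) for 8 genes higher in insulin-treated than in control retina, with the 5 untreated diabetic rats beside them; the y axes differ between panels. Fos, Mt1, Txnip, Fabp7 and Qprt had diabetic means above the insulin-treated ones, and Egr1 (6.74 to 7.24 in diabetic rats) and Itpka did not.

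The promoter of Mt1 is shown because its metal response elements are the classical route of its induction, and that of Hes1 because Notch acts on it through RBPJ. Both are the 250 bases before the RefSeq start on build GRCr8, written 5′ to 3′ on the gene's strand, with matches on either strand in capitals, to TGCACNC or TGCGCNC (the core of the metal response element) for Mt1 at chr19:10832976-10833225 and to TGGGAA (the RBPJ core) for Hes1 at chr11:84213046-84213295, each on the minus strand.
Mt1: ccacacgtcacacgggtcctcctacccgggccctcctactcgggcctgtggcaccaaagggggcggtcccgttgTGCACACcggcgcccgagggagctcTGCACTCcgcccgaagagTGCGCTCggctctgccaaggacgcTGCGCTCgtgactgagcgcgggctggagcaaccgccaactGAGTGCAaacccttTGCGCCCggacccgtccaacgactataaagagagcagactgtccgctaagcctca
Hes1: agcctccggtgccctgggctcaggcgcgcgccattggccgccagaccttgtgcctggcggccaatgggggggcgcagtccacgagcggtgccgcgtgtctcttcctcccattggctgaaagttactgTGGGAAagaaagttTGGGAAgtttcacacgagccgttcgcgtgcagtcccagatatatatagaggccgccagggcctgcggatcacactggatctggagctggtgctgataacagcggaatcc
The Mt1 window holds 6 matches on both strands together, and 4 or more were found in 89 of 33469 rat promoters (0.266%), while 1 or more were found in 20.6%. The Hes1 window holds 2 matches, and 2 or more were found in 2.71% of promoters and 1 or more in 22.1%. Both Hes1 matches lie on the gene's own strand. The search took TGGGAA only, so RBPJ sites with other letters would not be in capitals. A match is a description of these letters, and no binding was measured.

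Detection itself differed for some dim genes. Under the rule of detection on all arrays of 1 group and on fewer than 4 of the other, 14 genes were detected on all control arrays and on few insulin-treated ones, and 4 genes the other way round. Sync, syncoilin, an intermediate filament protein, was detected on 7 control and 3 insulin-treated arrays, with 4.46 to 5.24 and 3.39 to 4.75 (-0.92, SE 0.21, adjusted p = 0.146). Ifi44, an interferon-induced gene, was detected on 7 and 2 arrays, with 4.37 to 7.06 and 3.32 to 5.72 (-1.57, SE 0.51, adjusted p = 0.222). Ldhc, a lactate dehydrogenase known for its role in testis, was detected on 3 and 7 arrays, with 3.84 to 4.73 and 4.46 to 5.73 (0.51, SE 0.19, adjusted p = 0.315).

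Some genes varied widely between rats of a group. In controls the largest SD were those of Mip (3.01), Rps9 (2.63), Lim2 (2.38), Rnf113a2 (2.12), Fbln1 (2.04) and Cd24 (2.04). Rps9 had 5.06 and 5.54 in controls 1 and 2 and 10.25 to 11.16 in the other controls, and 5.15 in insulin-treated rat 6 against 9.93 to 10.59 in the rest, so dim and bright arrays occurred in both groups. In insulin-treated rats Vom2r79 (SD 1.94), Rps9 (1.93), Rnf113a2 (1.87), Lcn2 (1.77) and Pxmp4 (1.72) varied most. Lcn2, lipocalin 2, an acute phase protein of reactive glia, had 11.02 in insulin-treated rat 3, 6.05 to 7.30 in the other insulin-treated rats and 5.82 to 7.58 in controls.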

How the data were processed

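RNA of rat retinas was hybridised to Illumina RatRef-12 arrays. The authors summarised bead intensity values, subtracted background and scaled each array to a common mean in GenomeStudio 1.0.6, and deposited these intensities beside non-normalized intensities. The deposited detection p-value of each signal was used as given, and 19 further columns of detection p, beside the non-normalized signals, were left aside. Names came from the platform annotation, with 13259 probes named and 9258 not. Values under 10 were set to 10 and taken to log2.

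limma 3.58.1 (R 4.3.3) was fitted to the 14 arrays in 2 groups without covariates, with p adjusted by Benjamini-Hochberg over 10517 probes. The labels do not say whether rats of a group came from separate cohorts, and p-values measure the spread between these arrays. The untreated diabetic arrays enter only through a fit of all 3 groups. Genes named are the probe past the adjusted p, the 12 smallest p per direction with a fold change over 1.2, the largest non-overlapping differences, up to 3 members per list by p and the brightest, the qPCR genes, the largest spreads and the largest differences in detection, and a part of these is printed. Insr lies outside this rule. Members, lists and the rule were chosen with earlier results of these data known. Alternatives were other floors, detection filters, normalizations, models, blocks, single BeadChips and arrays left out. The lens or ciliary list's mean as a covariate, and leaving out controls 1 and 3 together, were chosen after the data had been seen. The fits were tested on simulated data. Tables and figures used pandas 2.3.3, numpy 2.4.6 and matplotlib 3.10.9. Promoters came from RefSeq (GRCr8); Fos and Txnip have no entry in the table used here.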

Additional observations from a re-analysis of the deposited data

Results flagged for a closer look

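Within the groups of 7, the values of the 77 genes given above were searched for a highest or lowest array that stood apart, with a gap of over 0.568 of the group's range to its neighbour, and 9 of 154 groups held one. That limit marks about 1 in 20 groups of unselected normal values. Some of these genes, such as Rps9, Lcn2 and Pxmp4, were named for their large spread, so that rate is no measure for them. For Tubgcp6, control 5 was the lowest at 3.66, against 4.36 to 4.76 in the other controls. For Col8a1, control 3 was the lowest at 4.25, against 6.77 to 7.55, and this control was also low for lens and ciliary genes. For Vamp3, insulin-treated rat 4 was the lowest at 8.10, against 8.34 to 8.48. For Phgdh, insulin-treated rat 2 was the lowest at 5.81, against 6.20 to 6.38. For Akr1b1, insulin-treated rat 7 was the lowest at 11.31, against 11.53 to 11.60. For Ldhc, insulin-treated rat 6 was the highest at 5.73, against 4.46 to 4.89. For Rps9, insulin-treated rat 6 was the lowest at 5.15, against 9.93 to 10.59. For Lcn2, insulin-treated rat 3 was the highest at 11.02, against 6.05 to 7.30. For Pxmp4, insulin-treated rat 1 was the lowest at 3.74, against 7.72 to 8.95.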

How the results depend on the processing

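The single probe past an adjusted p of 0.05 (Cobl) is a fragile count. It was 0 with each of BeadChip 1 alone, the BeadChip as a block, the replicate block, a detection p under 0.01, floor 50, an intensity trend, no detection filter, median-centred non-normalized signals, the methods' t-test and either covariate; 3 with array weights and with neqc; 62 with BeadChip 2 alone; and 337 without controls 1 and 3. Leaving out 1 array gave 0 to 128 (128 without control 1, 119 without control 3). Probes that differed by more than 1.2-fold at an unadjusted p under 0.05 (678) came to 414 with floor 50, 313 median-centred, 1327 on BeadChip 2 alone and 247 with the ciliary covariate, and to 575 to 824 with 1 array left out. Probes without overlap (23) came to 626 and 1530 on single BeadChips, where groups of 3 or 4 part more readily, to 294 without controls 1 and 3, and to 24 to 63 with 1 array left out. Under the replicate block 713 probes passed the unadjusted p and fold change. Replicate numbers did not pair the arrays, since the deviations of same-numbered arrays correlated at -0.244 to 0.224 and 2 arrays correlated best with their own number.

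Of 2524 gene values under alternatives, 2366 kept direction and side of the adjusted p, 20 were weaker (all Cobl), 108 passed it and 30 reversed. With the ciliary covariate the log2 difference of Akr1b1 came to 0.0319, the log2 difference of Igfbp7 to 0.0783 and the log2 difference of Mrpl54 to -0.00362. The log2 difference of Insr, near 0, came to -0.11 on BeadChip 1 alone, -0.006385 with the BeadChip as a block, -0.15 with the lens covariate and -0.0875 to 0.0998 with 1 array left out. Reversals also met genes given for their spread, none past the adjusted p. The log2 difference of Rps9 came to -2.21 on BeadChip 2 alone, -0.16 without controls 1 and 3 and -0.27 to 1.13 with 1 array left out. The log2 difference of Rnf113a2 came to -0.98 on BeadChip 1 alone, -1.02 with the lens covariate and -0.26 to 0.75 with 1 array left out. The log2 difference of Lcn2 came to -0.53 on BeadChip 2 alone, -0.0998 with array weights, -0.0565 without controls 1 and 3 and -0.40 to 0.43 with 1 array left out. The log2 difference of Vom2r79 came to -0.45 with the ciliary and -0.55 with the lens covariate, the log2 difference of Cd24 to 0.14 with the ciliary covariate and the log2 difference of Pxmp4 to 0.0433 on BeadChip 2 alone. The cause of these shifts was not tested. The number of arrays limits precision, and dim probes near the floor of 10 understate differences.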
